A study of Homo sapiens with 6 samples.

Results

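The ERBB2 amplicon genes are ERBB2 and its close neighbours on the long arm of chromosome 17, which are copied together with it in HER2-positive cancers. The members were the rows of the deposited expression table with the biotype protein_coding and one of the symbols MED1, CDK12, PPP1R1B, STARD3, PGAP3, ERBB2, MIEN1, GRB7, GSDMB and ORMDL3. All 10 were found among the 58735 genes of the table, of which 19951 were protein_coding. RNA-seq was performed on NCI-N87, an established gastric cancer cell line known for its ERBB2 amplification. The control cells, shNC, carried a lentiviral control construct, which the study calls shCtrl and describes as the empty vector, and the knockdown cells, shScamp1, carried a short hairpin RNA against SCAMP1, called shS1#1 in the study. Both were puromycin-selected populations of the same line, with 3 libraries each that the labels call biological replicates, and a single hairpin was sequenced. DNA copy number was not measured here, so the levels below are levels of RNA. In these bulk libraries, fewer cells with a transcript and less of it per cell cannot be told apart. The question addressed was how strongly the genes of the amplicon were expressed at baseline and whether they moved together when SCAMP1 was depleted.

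ERBB2 encodes HER2, a receptor tyrosine kinase without a known soluble ligand that signals as a partner of the other ErbB receptors, mainly ERBB3, and is the target of trastuzumab in gastric and breast cancer. When the segment around ERBB2 is amplified, its neighbours gain copies as well. GRB7 encodes an adaptor that binds phosphorylated receptors, and STARD3 a late endosomal cholesterol transporter. PGAP3 encodes a Golgi enzyme that remodels the lipid of GPI anchors, MIEN1 a small membrane-anchored protein linked to migration and invasion, and PPP1R1B the phosphatase inhibitor DARPP-32. CDK12 encodes a kinase of RNA polymerase II, MED1 a subunit of the Mediator complex, ORMDL3 an inhibitor of serine palmitoyltransferase and GSDMB a pore-forming gasdermin.

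Between 15064905 and 15988700 reads on genes were recovered in shNC libraries and between 14311769 and 14667628 in shScamp1 libraries. SCAMP1 itself stood at 12.6, 12.1 and 11.5 FPKM (fragments per kilobase of gene, scaled to the size of the library) in shNC and at 1.70, 1.37 and 1.99 FPKM in shScamp1 libraries, so the hairpin labels held. A gene was called changed when its adjusted p was under 0.05 in limma, with Benjamini-Hochberg adjustment over the 15556 genes that reached a mean of 0.5 FPKM. All 10 members reached it. Of 8 epithelial markers 7 were at 1 FPKM or more in shNC (summed 4460 to 4685 FPKM in shNC and 8157 to 8876 FPKM in shScamp1 libraries), while of 9 gastric markers only GATA4 and GATA6 were (summed 9.34 to 10.4 and 12.7 to 14.1 FPKM). None of 7 fibroblast or 3 endothelial markers reached that level, with 4 of the fibroblast markers at 0 in every library, and of 6 immune markers only LYZ did. The second shScamp1 library stood apart from the others. Its mitochondrial share was 9.21% of reads against 6.09% to 6.78% in the other 5 libraries, and it is treated separately below.

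At the RefSeq start sites used here, ERBB2 and PGAP3 lie head to head on opposite strands. Their RefSeq promoter windows, each 250 bases before to 50 bases after a start site, share bases. Both are shown because one of the genes changed in shScamp1 cells and the other did not pass the test. The sequences were read from RefSeq on GRCh38.p14, ERBB2 at chr17:39687844-39688143 on the plus strand and PGAP3 at chr17:39688008-39688307 on the minus strand, with the 136 shared bases in capitals.
ERBB2 promoter: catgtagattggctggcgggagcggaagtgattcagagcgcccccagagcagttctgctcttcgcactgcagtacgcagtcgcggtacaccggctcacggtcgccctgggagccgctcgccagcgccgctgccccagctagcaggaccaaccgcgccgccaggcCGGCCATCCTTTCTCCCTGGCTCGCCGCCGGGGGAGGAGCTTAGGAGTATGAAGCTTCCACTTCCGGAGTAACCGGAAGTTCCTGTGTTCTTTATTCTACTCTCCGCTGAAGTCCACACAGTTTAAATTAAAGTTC
PGAP3 promoter: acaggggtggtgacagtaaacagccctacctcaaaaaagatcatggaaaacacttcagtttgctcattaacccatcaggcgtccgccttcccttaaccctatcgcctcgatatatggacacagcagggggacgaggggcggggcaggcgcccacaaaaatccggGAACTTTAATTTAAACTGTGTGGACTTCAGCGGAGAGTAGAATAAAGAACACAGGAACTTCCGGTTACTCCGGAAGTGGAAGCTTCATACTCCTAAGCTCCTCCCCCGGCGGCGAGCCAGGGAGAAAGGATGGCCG
The start sites used for these windows were 37 bases apart, and each lay inside the window of the other gene. For PGAP3 the RefSeq start site was 8740 bases inside the GENCODE gene boundary, and for ERBB2 it was 180 bases inside. Promoter windows were read for 7 members. Of the motifs searched on both strands, the GC box GGGCGG was found in the PGAP3 window at position −115 from the start site, and CCAAT in the ERBB2 window at position −243. GGGCGG was present in 45.0% and CCAAT in 34.6% of all 35116 RefSeq promoter windows. STARD3 and MIEN1 windows and all 3 ORMDL3 windows also held GGGCGG. The STARD3 window alone held the AP-2 motif GCCNNNGGC (23.2% of windows). The MED1 window held CCAAT at position −76, and the CDK12 window held none of the motifs. Neither TATAAA (11.5% of windows) nor the core of the interferon-stimulated response element (3.57%) was present in any member window read. These 7 members had from 4 (MED1) to 26 (STARD3) annotated start sites, with 20 for ERBB2 and 8 for PGAP3. Windows were read at only some of them, and for ERBB2 and PGAP3 only at the start sites given above. Motifs and shared bases at the other start sites were not examined. A motif missing here may thus be present at another promoter of the same gene.

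At baseline the members spanned a 165-fold range, with ERBB2 at the top. ERBB2 stood at 1201, 1238 and 1268 FPKM in the 3 shNC libraries (1235 ± 33.6 FPKM, SD, n = 3), which placed it 21st of all protein_coding genes and 25th of all genes. It alone took 1.32 ± 0.0274% (SD, n = 3) of the reads on genes in shNC. MIEN1 followed at 391, 386 and 410 FPKM, then STARD3 at 260, 258 and 275 FPKM and GRB7 at 247, 251 and 251 FPKM. The receptor was thus 3.12 times as abundant, per length, as the next member of the group.

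A middle tier was formed by MED1 at 129, 130 and 126 FPKM, PGAP3 at 106, 105 and 113 FPKM and CDK12 at 99.4, 98.4 and 101 FPKM. The lower tier held ORMDL3 at 36.7, 36.3 and 38.2 FPKM, PPP1R1B at 16.8, 16.6 and 16.5 FPKM and GSDMB at 7.35, 7.55 and 7.60 FPKM. In this order no pair of neighbours overlapped between their shNC ranges. The closest pair was STARD3 and GRB7, whose means differed 1.06-fold. Even GSDMB, the lowest, lay above 74.5% of protein_coding genes, and GRB7 and STARD3 ranked 97th and 88th. The spread was small, with a coefficient of variation of 0.952% to 4.16% over the shNC libraries.

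**Figure D1:**
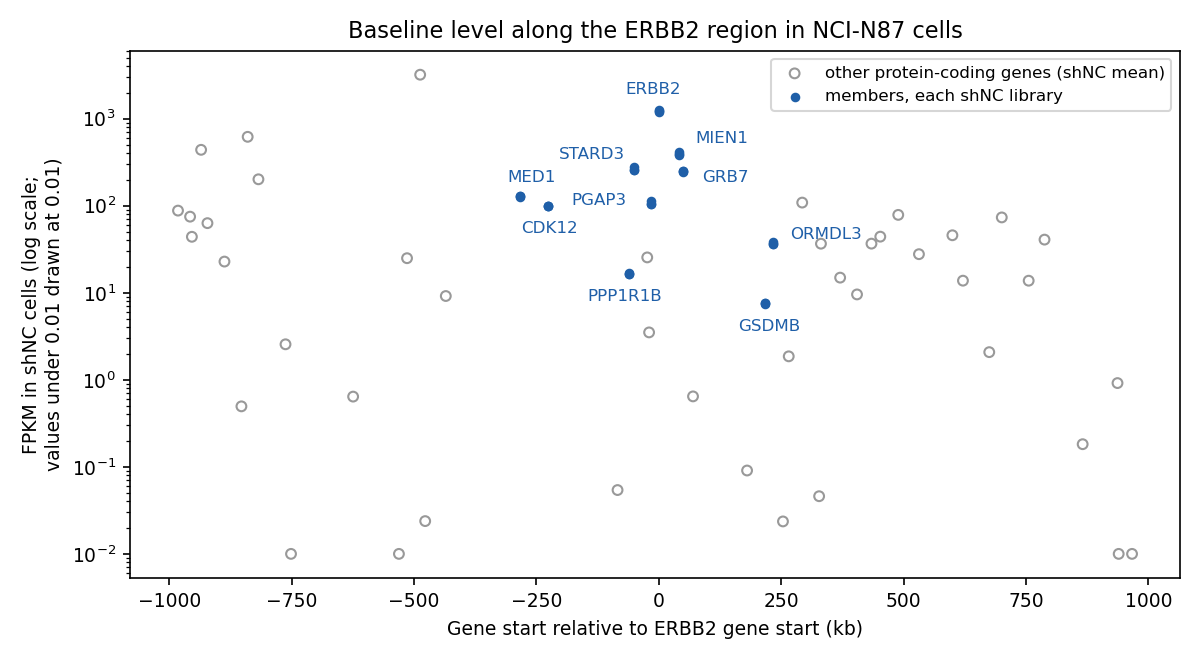
FPKM in shNC libraries (log axis) against the distance of the gene start from that of ERBB2 in kb, with blue points for each shNC library of the 10 members and open circles for the shNC mean of the other protein_coding genes within 1 Mb. Of the members ERBB2 is highest at 1235 FPKM and GSDMB lowest at 7.50 FPKM, and other genes lie on either side and between them, up to RPL19 at 3202 FPKM.

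Along the chromosome the levels did not decline evenly from ERBB2. The members spanned 523 kb, from MED1, whose start is at −284 kb from that of ERBB2 (chr17:39404285-39451286, minus strand), to ORMDL3, which starts 233 kb after it (chr17:39921041-39927601, minus strand). ERBB2 occupied chr17:39687914-39730426 on the plus strand, all in GRCh38 with GENCODE 29 gene boundaries. MIEN1 (chr17:39728496-39730787, minus) and GRB7 (chr17:39737927-39747291, plus) lie on its far side, starting 40.6 kb after ERBB2 and 9.43 kb after MIEN1, and both were among the 4 highest members. On the other side, STARD3 (chr17:39637065-39663484, plus) and PPP1R1B (chr17:39626740-39636626, plus) lie 0.438 kb apart end to start, yet STARD3 averaged 264 FPKM and PPP1R1B 16.6 FPKM. CDK12 (chr17:39461511-39564907, plus) begins at −226 kb from ERBB2 and GSDMB (chr17:39904595-39919854, minus) at 217 kb on the other side, and their levels were 99.5 ± 1.11 and 7.50 ± 0.132 FPKM (SD, n = 3).

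The 5 protein_coding genes that lie between members but are not members varied as widely. TCAP, which encodes a sarcomere protein, was at 25.5 ± 2.78 FPKM (SD, n = 3) and PNMT, the adrenaline-forming methyltransferase, at 3.50 ± 0.224 FPKM. IKZF3, a lymphoid transcription factor, was at 0.645 FPKM, NEUROD2 at 0.0541 ± 0.0439 FPKM and ZPBP2 at 0.0908 ± 0.0419 FPKM. PNMT and TCAP stand between STARD3 and PGAP3, so a gene at 3.50 FPKM lay within 20 kb of the start of ERBB2. Immediately outside the members, FBXL20, STAC2 and RPL19 on the MED1 side averaged 9.18, 0.0238 and 3202 FPKM in shNC, and LRRC3C, GSDMA and PSMD3 on the ORMDL3 side 0.0236, 1.86 and 109 FPKM. RPL19, a ribosomal protein gene, was the one gene of the window above ERBB2.

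The median shNC level was 118 FPKM for the 10 members, 32.2 FPKM for the 32 other tested protein_coding genes within 1 Mb of ERBB2, 6.35 FPKM for the 675 tested on the rest of chromosome 17 and 6.18 FPKM for all 11529 tested. These medians are descriptions, since the members were picked as genes of a known amplicon.

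In shScamp1 cells the members did not move together. GRB7 and PGAP3 rose and PPP1R1B fell, and 7 members did not pass the test. The 3 changed members are 30.0% of 10, against 14.0% of all genes tested (8.82% higher and 5.17% lower) and 16.7% of protein_coding genes tested (10.9% higher and 5.84% lower). These shares were not matched for level, and the median shNC level was 118 FPKM for the members against 6.18 FPKM for protein_coding genes tested. The log2 fold changes were positive for 5 members and negative for 5, with a median of 0.02 over the members against −0.02 over all genes tested. Libraries of the groups did not overlap for 7 of the 10, against 41.4% of all genes tested and 47.7% of protein_coding genes.

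**Figure D2:**
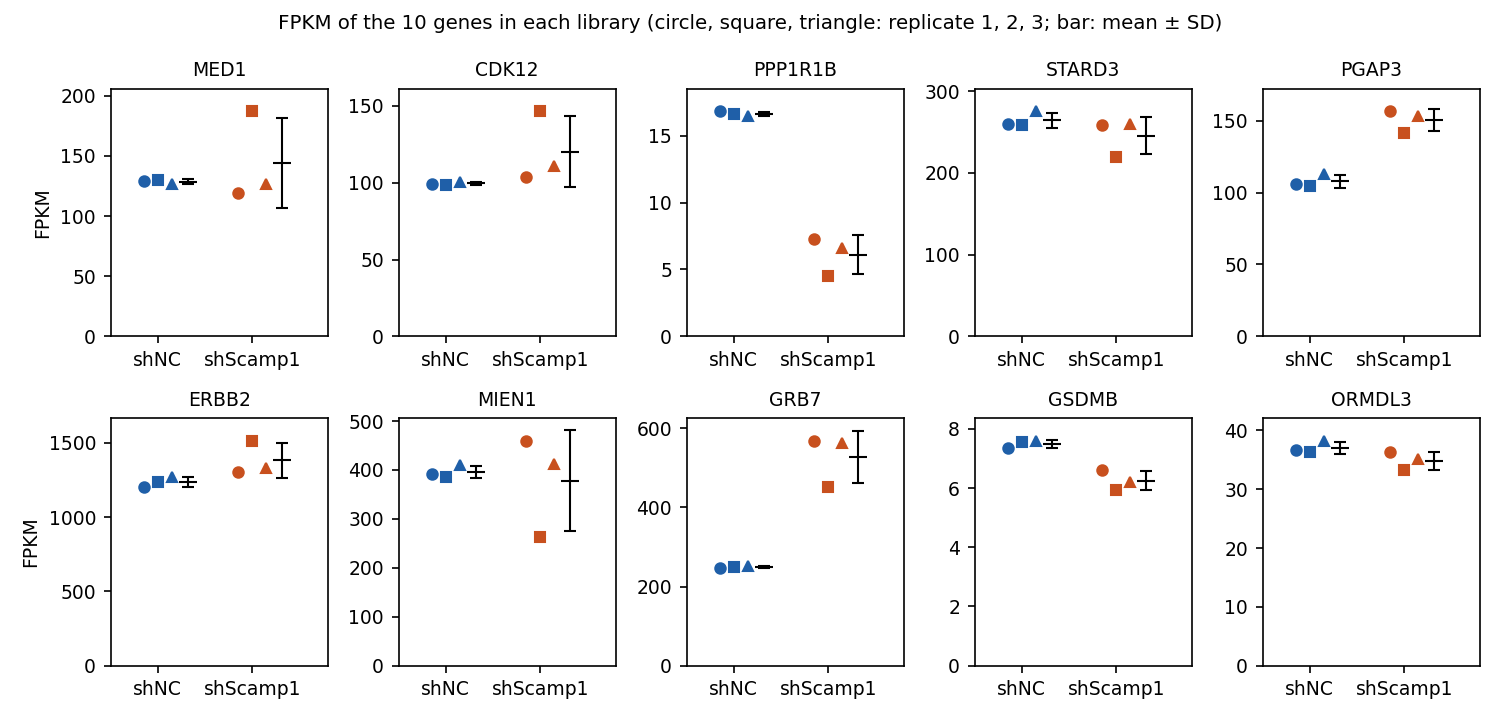
FPKM (linear axes from 0) of each member in the 3 shNC libraries (blue) and the 3 shScamp1 libraries (orange), with black bars for the mean ± SD, in order along the chromosome. GRB7 rose from 250 to 528 FPKM and PPP1R1B fell from 16.6 to 6.11 FPKM without overlap of the groups, while the orange squares of replicate 2 lie highest for MED1, CDK12 and ERBB2 and lowest for the other 7 genes.

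For the receptor, ERBB2 was at 1304, 1515 and 1329 FPKM in shScamp1 libraries (1382 ± 115 FPKM, SD, n = 3) against 1201, 1238 and 1268 FPKM in shNC. All shScamp1 libraries were above all shNC libraries. The log2 fold change was 0.16 ± 0.10 (SE), with a 95% interval of −0.09 to 0.41 and an adjusted p of 0.336 in limma. The change of 1.12-fold thus did not pass the test. Behind these values lay 196510 to 214034 reads per library, so counting error was small beside the spread between libraries. Without shScamp1 replicate 2 the log2 fold change was 0.09 (adjusted p = 0.173). As a percentage of all reads on genes, ERBB2 took 1.32 ± 0.0274% in shNC and 1.40 ± 0.0824% in shScamp1 libraries (SD, n = 3), and on that scale the groups overlapped.

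GRB7, the adaptor gene next to ERBB2 and MIEN1, showed the highest rise of the members. It stood at 247, 251 and 251 FPKM in shNC and at 569, 452 and 562 FPKM in shScamp1 libraries. Every shScamp1 library was above every shNC library, by far more than the range of the controls. GRB7 thereby rose 2.11-fold (log2 fold change 1.07 ± 0.11, SE, 95% interval 0.81 to 1.33, limma adjusted p = 0.00227), and it was called in all 6 fits that left out a single library, with an adjusted p of at most 0.0214. GRB7 also passed the study's threshold, an absolute log2 fold change above 1 with p under 0.05, taken here as the limma adjusted p. PPP1R1B passed it too, and so did 3.16% of all genes tested, in either direction. The other genes of its family did not pass the test. GRB10 was at 1.18 ± 0.0898 and 0.978 ± 0.0568 FPKM and GRB14 at 2.87 ± 0.270 and 2.35 ± 0.201 FPKM (SD, n = 3), with limma adjusted p-values of 0.294 and 0.152 (1 of the 2 had an unadjusted p under 0.05).

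PPP1R1B, the DARPP-32 gene, moved the other way. Its values were 16.8, 16.6 and 16.5 FPKM in shNC and 7.26, 4.51 and 6.57 FPKM in shScamp1 libraries. The highest shScamp1 library was thus below the lowest shNC library by more than the range within either group. PPP1R1B fell to 0.368 of its shNC mean (log2 fold change −1.46 ± 0.17, SE, 95% interval −1.87 to −1.04, limma adjusted p = 0.00402), and it too was called in all 6 fits that left out a library (adjusted p at most 0.0281). Its count was between 281 and 1259 reads per library. Its relative PPP1R1A was near 0 (0.0317 FPKM in shNC) and was not tested. Of 8 tested genes in the list of DARPP-32 relatives and partners 1 was lower, the phosphatase subunit PPP1CC, from 33.1 ± 0.186 to 27.0 ± 1.55 FPKM (SD, n = 3, adjusted p = 0.0342).

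PGAP3, which has a RefSeq start site 37 bases from the ERBB2 start site used here, rose as well. It stood at 106, 105 and 113 FPKM in shNC and at 156, 142 and 153 FPKM in shScamp1 libraries, with no overlap. The rise was 1.40-fold (log2 fold change 0.48 ± 0.07, SE, 95% interval 0.30 to 0.66, limma adjusted p = 0.00963). This call was less stable than those of GRB7 and PPP1R1B. It was lost without shNC replicate 1 (adjusted p = 0.0618), without shNC replicate 2 (0.0649) and without shScamp1 replicate 3 (0.0508), and the log2 fold change was between 0.45 and 0.52 in the 6 such fits. PGAP3 and ERBB2 share 194 exonic bases on opposite strands, 5.29% of the exonic length of PGAP3, and whether reads were counted by strand is not given in the sources used here, so reads there cannot be assigned to either gene with certainty. Of 5 tested genes of GPI anchor remodelling none passed the limma test (1 had an unadjusted p under 0.05), and 1 of 24 tested genes of GPI anchor synthesis was lower, the mannosyltransferase gene PIGZ, from 2.59 ± 0.435 to 1.51 ± 0.0729 FPKM (SD, n = 3, adjusted p = 0.0208).

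**Figure D3:**
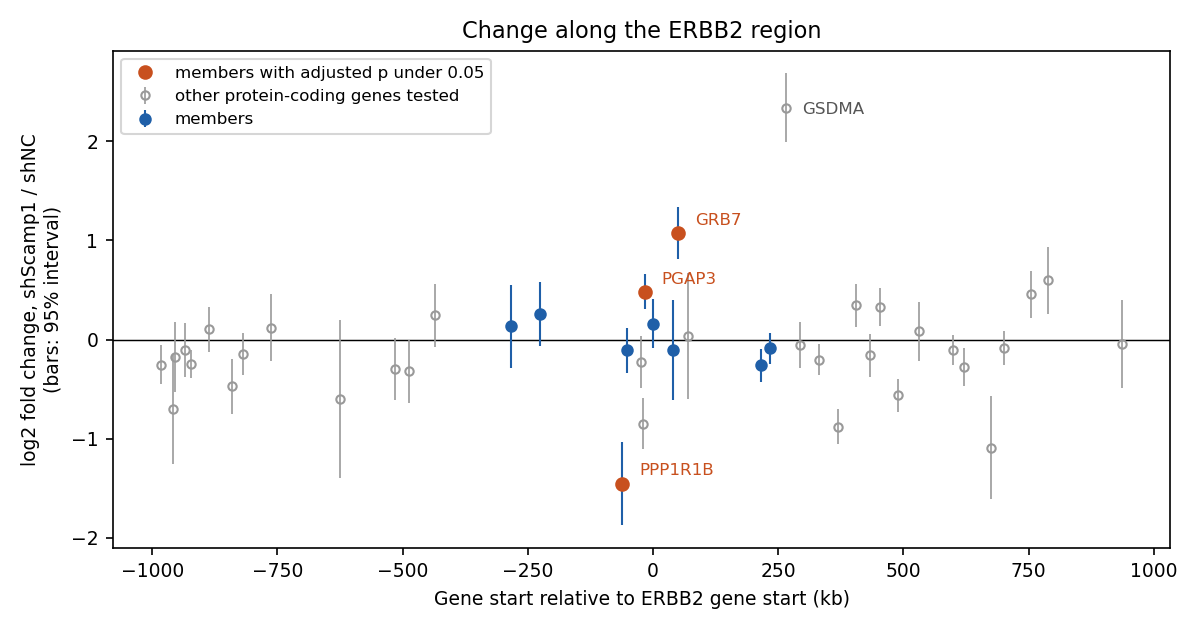
Log2 fold change of shScamp1 over shNC with its 95% interval against the distance of the gene start from that of ERBB2 in kb, for the 10 members (blue, orange where the adjusted p was under 0.05) and the other 32 tested protein_coding genes of the window (grey). PPP1R1B at −1.46, PGAP3 at 0.48 and GRB7 at 1.07 lie among members near 0, and GSDMA, outside the members, is highest at 2.34.

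STARD3 and MIEN1 lie between these genes and did not pass the test. STARD3 was at 260, 258 and 275 FPKM in shNC and 258, 219 and 259 FPKM in shScamp1 libraries, and the groups overlapped (log2 fold change −0.11, 95% interval −0.33 to 0.11, limma adjusted p = 0.460). The values of MIEN1 were 391, 386 and 410 FPKM in shNC and 460, 262 and 411 FPKM in shScamp1 libraries. The shScamp1 libraries at 460 and 411 FPKM were thus above all controls, the latter narrowly, and that at 262 FPKM was far below them. The interval of MIEN1 was wide (log2 fold change −0.11, −0.61 to 0.40, adjusted p = 0.763). Without shScamp1 replicate 2 its log2 fold change turned to 0.14 (adjusted p = 0.149). MIEN1 and ERBB2 overlap end to end by 571 exonic bases on opposite strands, 24.9% of the exonic length of MIEN1 and 5.53% of that of ERBB2, and the same limit on strand applies.

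The kinase gene CDK12 and the Mediator gene MED1 form the MED1-side edge of the group. CDK12 stood at 99.4, 98.4 and 101 FPKM in shNC and at 104, 146 and 111 FPKM in shScamp1 libraries, all of the latter above the former (log2 fold change 0.26, 95% interval −0.07 to 0.58, limma adjusted p = 0.249). MED1 was at 129, 130 and 126 FPKM in shNC and at 119, 187 and 126 FPKM in shScamp1 libraries, where only replicate 2 was above the controls (0.13, −0.28 to 0.55, adjusted p = 0.639). Without that library the log2 fold change of CDK12 was 0.11 (adjusted p = 0.10) and that of MED1 turned to −0.07 (0.246). The partner of CDK12, cyclin K, was far lower: CCNK was at 1.17 ± 0.110 and 0.996 ± 0.191 FPKM and the related kinase CDK13 at 3.24 ± 0.183 and 3.64 ± 0.717 FPKM (SD, n = 3), and neither passed the test. None of 8 cyclin K and transcription kinase genes passed the limma test (1 had an unadjusted p under 0.05), and of 12 long DNA repair genes, a class known to depend on CDK12, 1 was lower, CHEK1, from 6.84 ± 0.303 to 5.60 ± 0.202 FPKM (adjusted p = 0.0459). Of the 31 other Mediator subunits tested, MED15 was higher (9.39 to 11.8 FPKM) and MED22 lower (8.10 to 6.65 FPKM).

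At the far side of the group, ORMDL3 and GSDMB were lower in every shScamp1 library than in any shNC library, and neither passed the test. ORMDL3 stood at 36.7, 36.3 and 38.2 FPKM in shNC and at 36.2, 33.2 and 35.1 FPKM in shScamp1 libraries (log2 fold change −0.09, 95% interval −0.24 to 0.06, limma adjusted p = 0.386). GSDMB was at 7.35, 7.55 and 7.60 FPKM against 6.60, 5.94 and 6.22 FPKM (−0.26, −0.43 to −0.09, adjusted p = 0.0557). GSDMB lay just outside the threshold. Of the 6 fits that left out a library, only that without shScamp1 replicate 2 called it lower (log2 fold change −0.22, adjusted p = 0.0275). The highest adjusted p in those fits was 0.191. Without shScamp1 replicate 2, 27.8% of all genes tested were called, against 14.0% with it. The relatives ORMDL1, at 11.7 ± 0.457 and 9.36 ± 2.22 FPKM, and ORMDL2, at 8.79 ± 0.498 and 8.46 ± 1.63 FPKM (SD, n = 3), did not pass the test in all 6 libraries either (adjusted p-values of 0.236 and 0.776). Among 13 tested genes of ORMDL proteins and ceramide synthesis 1 was lower, the dihydroceramide desaturase gene DEGS1, from 6.20 ± 0.298 to 3.87 ± 0.423 FPKM (adjusted p = 0.00876).

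Among the gasdermins and their proteases, 3 of 7 tested genes were higher and 1 lower. GSDMA, which starts 265 kb after ERBB2 and is the second protein_coding gene beyond ORMDL3 (chr17:39953263-39977766, plus), rose 5.32-fold. Its values were 1.64, 1.98 and 1.97 FPKM in shNC and 9.58, 11.7 and 8.42 FPKM in shScamp1 libraries (log2 fold change 2.34 ± 0.14, SE, limma adjusted p = 0.000545), with 59 to 75 reads per shNC library and 280 to 364 per shScamp1 library. GSDMC, on chromosome 8, rose from 1.97 ± 0.257 to 7.56 ± 1.61 FPKM (SD, n = 3, adjusted p = 0.00206). CASP4 was higher at 8.03 against 5.96 FPKM and NINJ1, which ruptures the membrane of dying cells, lower at 8.47 against 12.9 FPKM. GSDMD, the most widely expressed gasdermin, was at 12.6 ± 0.794 and 12.0 ± 1.79 FPKM without a call (adjusted p = 0.731), and GSDME and PJVK were below the level tested.

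The other members were also read against ERBB2 in the same library. The FPKM ratio of GRB7 to ERBB2 was 0.206, 0.202 and 0.198 in shNC and 0.436, 0.299 and 0.423 in shScamp1 libraries, a mean log2 difference of 0.91. The ratio of PPP1R1B to ERBB2 was lower by a mean log2 difference of −1.63, that of GSDMB by −0.42, that of STARD3 by −0.27 and that of ORMDL3 by −0.25, and that of PGAP3 was higher by 0.32, all without overlap of the groups. Without shScamp1 replicate 2, in which ERBB2 was higher than in the other shScamp1 libraries and these 6 genes lower, the log2 differences were 1.09 for GRB7, −1.36 for PPP1R1B, −0.32 for GSDMB, −0.12 for STARD3, −0.15 for ORMDL3 and 0.43 for PGAP3, values added after the data were seen. Those of STARD3 and ORMDL3 thus moved by over 1.5 times with that library. The exact permutation test, two-sided, gave p = 0.1 for each of these 6 ratios, the smallest that 3 against 3 libraries can give, so it cannot pass 0.05. Ratios of MED1, CDK12 and MIEN1 to ERBB2 overlapped between the groups (exact permutation p of 0.9, 0.3 and 0.7). Since ERBB2 enters every ratio, the 9 ratios are not independent of each other. ERBB2 itself was higher in every shScamp1 library than in any shNC library, which lowers each ratio, and STARD3 overlapped between the groups in plain FPKM. The share of all genes whose ratio to ERBB2 did not overlap was not computed. In plain FPKM the groups did not overlap for 41.4% of all genes tested.

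**Figure D4:**
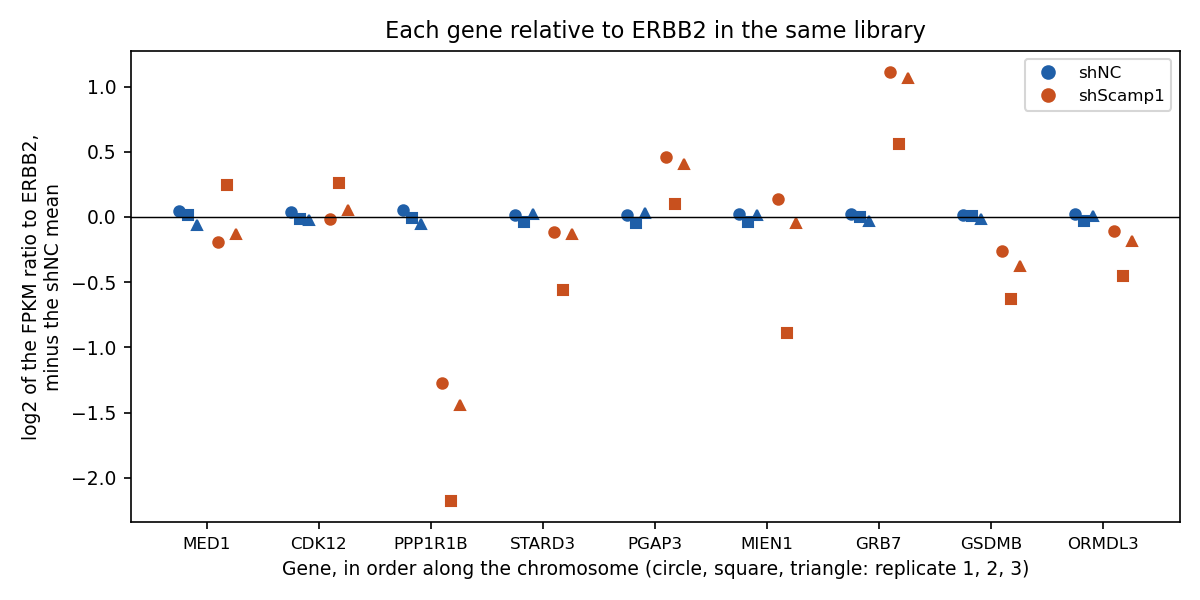
Log2 of the FPKM ratio of each member to ERBB2 in the same library, after subtraction of the shNC mean of that ratio, for shNC (blue) and shScamp1 (orange) libraries. The 3 shScamp1 points of GRB7 and PGAP3 are above 0 and those of PPP1R1B, STARD3, GSDMB and ORMDL3 below 0, each apart from the shNC points.

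The summed level of the 10 members was 2494, 2526 and 2607 FPKM in shNC and 3020, 2967 and 3000 FPKM in shScamp1 libraries, a 1.18-fold difference without overlap of the groups. Without ERBB2 the other 9 members summed to 1307 ± 27.8 and 1613 ± 141 FPKM (SD, n = 3), and GRB7 and ERBB2 had the highest differences in mean FPKM between the groups. The members together took 1.95 ± 0.0303% of reads on genes in shNC and 2.13 ± 0.0597% in shScamp1 libraries.

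The second shScamp1 library differed from the other shScamp1 libraries by the length of the gene. On the log2 scale it lay below the mean of replicates 1 and 3 for MIEN1 (−0.73), PPP1R1B (−0.61), GRB7 (−0.32), STARD3 (−0.24), PGAP3 (−0.13), GSDMB (−0.11) and ORMDL3 (−0.10). It lay above them for ERBB2 (0.20), CDK12 (0.45) and MED1 (0.61). The 3 genes above 0 are the members with the longest merged exons, 7330 bases for MED1, 10321 for ERBB2 and 12773 for CDK12, and MIEN1, the farthest below, is the shortest at 2292 bases. Over all genes tested, the median of the same difference was 0.08 for lengths under 1 kb, −0.34 for 1 to 2 kb, −0.20 for 2 to 4 kb, 0.02 for 4 to 8 kb and 0.24 above 8 kb, so it rose with length from 1 kb on and not below it. Single members departed from these medians. In the class of 4 to 8 kb, PPP1R1B was at −0.61, STARD3 at −0.24, GSDMB at −0.11 and MED1 at 0.61. In size, the differences of the members exceeded those of 18.4% (ORMDL3) to 84.6% (MIEN1) of genes tested. For shNC replicate 2 the medians in the 5 classes lay between −0.02 and 0.02. The median difference of shScamp1 replicate 2 also moved with base composition, from 0.09 in genes under 40% GC to −0.19 in genes of 60% GC or more. The part of this trend in the results of the members was not tested beyond the fit without that library and a fit with the trends removed. In the latter, which was added after the data were seen, ERBB2 was at a log2 fold change of 0.10 (adjusted p = 0.372), GRB7 at 1.12 (0.000319), PGAP3 at 0.53 (0.00125) and PPP1R1B at −1.43 (0.00179), and GSDMB was called lower at −0.26 (0.0370).

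**Figure D5:**
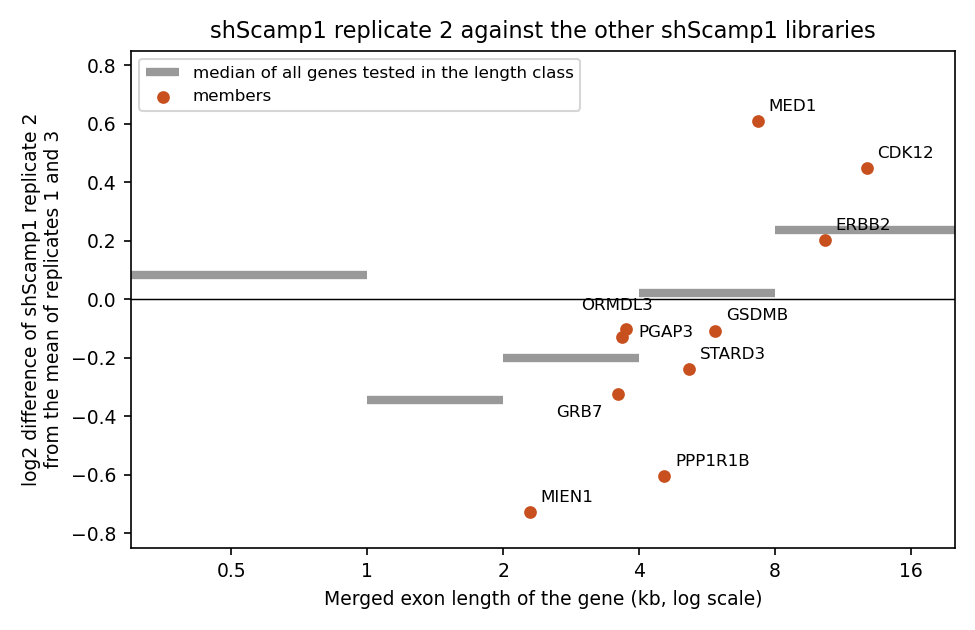
Log2 difference of shScamp1 replicate 2 from the mean of shScamp1 replicates 1 and 3 against merged exon length in kb (log axis), for the 10 members (points) and as medians of all genes tested in 5 length classes (grey bars). Members below 0 and the grey bars of 1 to 4 kb lie on the left and ERBB2, CDK12 and MED1 lie above 0 on the right.

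In the rest of the window, 4 of 32 tested protein_coding genes that are no members rose and 6 fell, or 31.25%, against 16.7% of protein_coding genes and 16.4% of those on the rest of chromosome 17. These sets were unlike in level, with median shNC levels of 32.2, 6.18 and 6.35 FPKM, and the shares were not matched for level. PNMT, which stands between STARD3 and PGAP3, fell from 3.25, 3.62 and 3.64 FPKM to 2.02, 2.01 and 1.69 FPKM (log2 fold change −0.85 ± 0.11, SE, limma adjusted p = 0.00511). TCAP beside it was at 25.5 and 21.8 FPKM without a call (adjusted p = 0.219). Changes thus ran in both directions over a short stretch, from PPP1R1B and PNMT, which fell, to PGAP3 and GRB7, which rose. Farther out, the thyroid hormone receptor gene THRA fell from 14.9 ± 0.819 to 8.07 ± 0.378 FPKM (SD, n = 3, adjusted p = 0.00120), RAPGEFL1 from 78.5 ± 3.60 to 53.2 ± 2.22 FPKM (0.00450) and GJD3 from 2.08 ± 0.224 to 0.941 ± 0.255 FPKM (0.0225), and TNS4 rose from 40.8 ± 0.643 to 62.5 ± 12.6 FPKM (0.0382). Of the 10 called genes, GSDMA, PNMT, THRA and RAPGEFL1 were called in all 6 fits that left out a library, and the other 6 were each lost in some fit (highest adjusted p from 0.101 to 0.168), all 6 without shNC replicate 1, all 6 without shNC replicate 2, 5 without shNC replicate 3, 3 without shScamp1 replicate 1, 5 without shScamp1 replicate 3 and none without shScamp1 replicate 2. Of 3 tested genes between the members, 1 was called.

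Between the outer members the table also held non-coding genes, named here after their values were seen. The lincRNA AC009283.1, which lies between CDK12 and PPP1R1B, fell from 16.5, 17.4 and 17.4 FPKM to 10.1, 6.23 and 10.7 FPKM (log2 fold change −0.96, limma adjusted p = 0.0289), a call that was lost without shNC replicate 1, 2 or 3 (adjusted p up to 0.109). MIR4728, a microRNA gene within an intron of ERBB2, was listed at 42.9 ± 4.02 and 35.4 ± 5.87 FPKM (SD, n = 3) without a call, a value of the gene and not of the mature microRNA. The antisense gene AC005288.1 at the end of MED1 was at 136 ± 5.47 and 158 ± 28.6 FPKM without a call, and its exons do not overlap those of MED1.

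Genes that work with the ErbB receptors changed in part. Of 22 tested receptors and adaptors 4 were higher and 1 lower, or 22.7%, against 16.7% of all protein_coding genes tested. ERRFI1, a feedback inhibitor of ErbB kinases, rose from 4.61 ± 0.389 to 8.83 ± 0.813 FPKM (SD, n = 3, limma adjusted p = 0.00295), ERBB3 from 13.4 ± 0.219 to 19.1 ± 2.84 FPKM (0.0318) and the docking protein gene GAB1 from 1.60 ± 0.109 to 2.48 ± 0.356 FPKM (0.0322), and SRC was the fourth. The adaptor CRKL fell from 39.0 ± 0.705 to 29.6 ± 1.25 FPKM (0.0107). EGFR was at 18.3 ± 0.241 and 17.7 ± 4.50 FPKM (0.799), and ERBB4 was at 0 in all libraries, so ERBB2 exceeded each of its receptor relatives in every library.

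Of 14 chaperones and co-receptors of HER2, 3 were higher, the integrin genes ITGB1 (78.2 ± 2.07 to 106 ± 2.82 FPKM, limma adjusted p = 0.00722), ITGB4 (48.2 ± 2.28 to 76.6 ± 13.5 FPKM) and ITGA6 (63.0 ± 0.703 to 106 ± 23.4 FPKM), and CD44 and CAV1 were lower. Of 13 tested genes listed as regulators of ERBB2 transcription, EHF (29.9 ± 1.47 to 55.8 ± 11.5 FPKM, adjusted p = 0.0128), ETV4, ETS2 and ZNF217 were higher, and MYB (2.57 ± 0.158 to 1.33 ± 0.212 FPKM, 0.00919) and MYBL2 lower. Of 8 tested relatives and partners of STARD3, the cholesterol exporter gene NPC1 (6.71 ± 0.0965 to 9.52 ± 1.22 FPKM) and OSBPL1A were higher, while the nearest relative STARD3NL was at 6.20 ± 0.271 and 5.80 ± 0.806 FPKM (0.580). Of 6 tested prenylation and redox partners of MIEN1, SELENOT was higher (21.4 ± 1.07 to 29.8 ± 1.44 FPKM, 0.00901). Across the 14 lists built around the members 29 genes were called, of which 4, ERRFI1, ITGB1, GSDMA and GSDMC, were called in all 6 fits that left out a library. Of the other 25, 24 were lost without shNC replicate 1, 23 without replicate 2, 22 without replicate 3, 12 without shScamp1 replicate 1 and 19 without replicate 3, with a highest adjusted p from 0.0507 to 0.177. By list, the share called ran from 0% for the cyclin K kinases to 57.1% for the gasdermins and their proteases. It was 4.17% for GPI anchor synthesis, 6.45% for the Mediator subunits and 35.7% for the HER2 chaperones and co-receptors. Among all protein_coding genes tested it was 16.7%, and no list was tested against that share. Of 20 interferon-induced genes, a list also chosen with earlier results of these data known, 18 rose, with a median log2 fold change of 1.44 over the list. All 18 were called in each of the 6 fits that left out a library. The median absolute log2 fold change was 0.25 over all genes tested, 0.21 over protein_coding genes tested and 0.21 over the members.

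The genes whose pattern over the 6 libraries was most like that of ERBB2 lay on other chromosomes. Likeness was the root mean square difference of log2 values after subtraction of the shNC mean, over 6576 protein_coding genes of at least 5 FPKM. LAMA5, a laminin chain gene on chromosome 20, was nearest with 0.00761, from 46.7, 47.9 and 49.6 FPKM to 51.2, 59.2 and 51.8 FPKM. FAM83H (0.0141), TRIM11 (0.0173), PTP4A2 (0.0212) and TMEM184B (0.0219) followed. The nearest member was CDK12, at rank 909 with 0.111, then MED1 at rank 1485, and GRB7 and PPP1R1B ranked 6321 and 6538. The other members were few among these candidates. The likeness also takes in shScamp1 replicate 2, which lay above the other shScamp1 libraries for ERBB2, CDK12 and MED1, the longest members. Whether the members are regulated together was not tested by these ranks.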

How the data were processed

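RNA-seq of 6 NCI-N87 libraries, 3 shNC and 3 shScamp1, was analysed. The authors deposited FPKM values per gene, made according to the labels with HISAT2 2.0.5, featureCounts 1.5.0-p3 and DESeq2 1.20.0 on hg38, and coordinates and lengths of all 58735 genes equalled GENCODE 29. FPKM times length gave whole reads for 100% of values above 0 (within 0.05 of a whole number), and the deposited values already carried a scaling between libraries (size factors 0.914 to 1.11). From these, log2 values were computed with a pseudocount of 0.1 for genes averaging 0.5 FPKM or more over the 6 libraries, and limma 3.58.1 in R 4.3.3 (linear model, moderated variances with a trend on the mean) compared the groups. Fold changes on this scale understate those of low genes. The labels call the replicates biological, but whether they came from separate infections is not stated, and the study's methods except RNA-seq from the assays that were independently repeated, so p-values measure only the spread between these libraries, which may be technical.

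The members and lists were chosen with earlier results of these data known. Named were the members, window genes between or next to them, up to 6 changed window genes, member relatives, up to 4 changed genes per list and the 5 genes most like ERBB2. Some genes of that rule are given by count. Alternatives changed the pseudocount, filter, scaling, trend, voom weights on recovered reads, genes fitted, replicate block and libraries. Tables and figures were made in Python 3.11.15.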

Additional observations from a re-analysis of the deposited data

How the results depend on the processing

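The change of ERBB2 kept its positive sign and stayed short of the threshold in all 18 alternatives, with log2 fold changes of 0.08 to 0.20 and adjusted p-values of 0.173 to 0.715 in limma. GRB7 (1.00 to 1.18) and PPP1R1B (−1.59 to −1.25) were called in all 18. PGAP3 was called in 14, and the replicate block and 3 fits without a library lost it. GSDMB became a call in 6. When a library was left out, MIEN1 ranged from −0.27 to 0.14 and MED1 from −0.069 to 0.26, and both turned sign only without shScamp1 replicate 2. Between 2 and 4 members were changed in each alternative, and the summed level was 1.16 to 1.19-fold. Baseline levels moved by less than 1 SD.

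The number of changed genes, 2177, was 808 to 4330 when a library was left out, the latter without shScamp1 replicate 2. Those above 1 on the log2 scale numbered 492, and 248 with a pseudocount of 1. Scaling by total reads gave 1138 higher and 1268 lower genes against 1372 and 805, with a median log2 fold change over all genes of −0.09 in place of −0.02, and left all member calls but that of GSDMB in place. The voom fit on recovered reads called 2759 genes. Same-numbered libraries deviated together little (correlations across genes of −0.04, 0.03 and 0.07), and the other pairings ran from −0.08 to 0.05. Values this near 0 do not settle whether the numbers pair the libraries. With the replicate block 958 genes were changed, and PGAP3 had an adjusted p of 0.0514. Precision is limited by 3 libraries a group and by the spread of shScamp1 replicate 2, and for GSDMA and PNMT also by few reads.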
